A study of Mus musculus with 12 samples.

Results

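Colon RNA of mice that lacked LAO1, IL4i1 or both was compared as one set with colon RNA of wild type mice. The knockout side held 9 arrays, 3 for each of the 3 knockout genotypes, and the wild type side held 3 arrays, so that all 12 arrays of the series were used. Each knockout genotype had the same weight in the knockout mean. Attention was then given to probes whose difference from wild type had one sign in the LAO1 knockout, the IL4i1 knockout and the double knockout. This held for 9145 of 19572 probes with a gene name (46.7%), which stood for 9126 of 19505 genes: 4835 probes were higher in all 3 knockouts (24.7%) and 4310 were lower (22%). Among all 22206 probes, named or not, the share of one sign was also 46.7%, with 25% higher and 21.7% lower. The 3 differences share the same wild type arrays, so one sign by itself carries little weight.

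All mice were healthy males 12 to 16 weeks old, kept under a 14 h light cycle, and the labels name no treatment. They give the genotypes as wild type, LAO1 KO, IL4i1 KO and DKO, and 4 mice were chosen per genotype. The strain, the deleted exons, whether the mice were littermates, the hour of tissue collection and whether 1 array stands for 1 mouse are not given in the sources used here. The p-values therefore measure the spread between these arrays, which may be partly technical.

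The products of Lao1 and Il4i1 are secreted flavoenzymes, L-amino acid oxidases, which deaminate amino acids to keto acids and release ammonia and hydrogen peroxide. IL4I1 acts mainly on aromatic amino acids and is known from antigen-presenting cells and B cells, and LAO1 is known from mouse milk and mucosal secretions. Products of tryptophan and phenylalanine breakdown can act on immune cells, and hydrogen peroxide acts on microbes. The question put to the pooled comparison is which colon transcripts stood apart from wild type whenever at least 1 of the oxidases was missing.

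The arrays were alike in overall level, with medians of 5.42 to 5.49 on the log2 scale and correlations between arrays of 0.964 to 0.99. In a principal component analysis, the arrays farthest out were IL4i1 knockout replicate 2 (on PC1), double knockout replicate 1 (on PC2) and double knockout replicate 2 (on PC3). The RNA came from whole tissue, so fewer cells of a type and less RNA per cell cannot be told apart. Markers of colonocytes, goblet cells and smooth muscle were bright on average on every array. The mean over each list was 13.49 to 14.99, 13.31 to 14.4 and 12.01 to 13.66. The Y-linked genes Uty, Kdm5d and Eif2s3y were present on all arrays, with Uty at 8.96 to 9.91.

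The targeted genes were examined first. The Lao1 probe was dim in every array, at 3.24, 3.12 and 2.64 in wild type, 3.10, 2.68 and 3.24 for LAO1 KO, 2.98, 3.33 and 3.16 for IL4i1 KO and 3.23, 3.41 and 3.56 for DKO. The groups overlapped, the pooled difference was 0.19 (SE 0.18, adjusted p = 0.961), and a probe near the floor in wild type gives no check of the genotype. Il4i1 was not analysed here, as no probe bore its name.

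One gene passed the test of the pooled comparison. The transcript of Sh3d19, an SH3-domain adaptor with a part in endocytosis and in the shedding of membrane-bound growth factors, was 8.31-fold higher in the knockouts. Its log2 values were 12.03, 11.79 and 12.11 in wild type, 14.67, 14.96 and 15.08 for LAO1 KO, 15.28, 15.55 and 15.21 for IL4i1 KO and 14.90, 14.89 and 14.75 for DKO. The lowest knockout array lay 2.56 above the highest wild type array, and the spread within each genotype was small against that gap. The pooled log2 difference was 3.06 (SE 0.16, 95% interval 2.72 to 3.39, adjusted p = 7.97e-07).

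Each knockout was also set against wild type by itself. Of all probes, 1 passed for LAO1 KO (0.0045%), 3 for IL4i1 KO (0.0135%) and 5 for DKO (0.0225%), and Sh3d19 was among them each time. At an unadjusted p under 0.05 the shares were 3.02%, 7.58% and 7.44%. The Sh3d19 difference was 2.93 for LAO1 KO, 3.37 for IL4i1 KO and 2.87 for DKO. These 3 sizes differed from each other at an unadjusted p of 0.0404, which did not hold after adjustment (adjusted p = 0.571). A missed threshold does not show that the sizes are equal.

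Sh3d19 lies on chromosome 3, whereas Lao1 lies on chromosome 4 and Il4i1 on chromosome 7. The 5 named genes on each side of it did not pass with it. Before it stand Tmem154, Fbxw7, Gatb, Fam160a1 and Glt28d2, and after it Prss48, Rps3a1, Lrba, Mab21l2 and Dclk2. Their pooled differences ran from -0.23 for Lrba to 0.30 for Fbxw7, with adjusted p-values of at least 0.961. Because the Sh3d19 values fall into 2 separate clusters, no correlation of other genes with it over the 12 arrays is given.

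The 250 bases before the start of Sh3d19 are shown because it is the gene that passed (RefSeq, GRCm38.p6, chr3:85970868-85971117, plus strand, read 5′ to 3′). No source used here names the build of the array annotation. None of the 4 motifs described further on was found in its window.
Sh3d19: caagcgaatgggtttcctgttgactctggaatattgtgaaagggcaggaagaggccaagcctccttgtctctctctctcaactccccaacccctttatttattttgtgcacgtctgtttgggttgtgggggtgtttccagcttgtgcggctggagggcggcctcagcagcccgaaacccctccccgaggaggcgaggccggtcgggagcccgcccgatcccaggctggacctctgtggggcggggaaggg

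**Figure D1:**
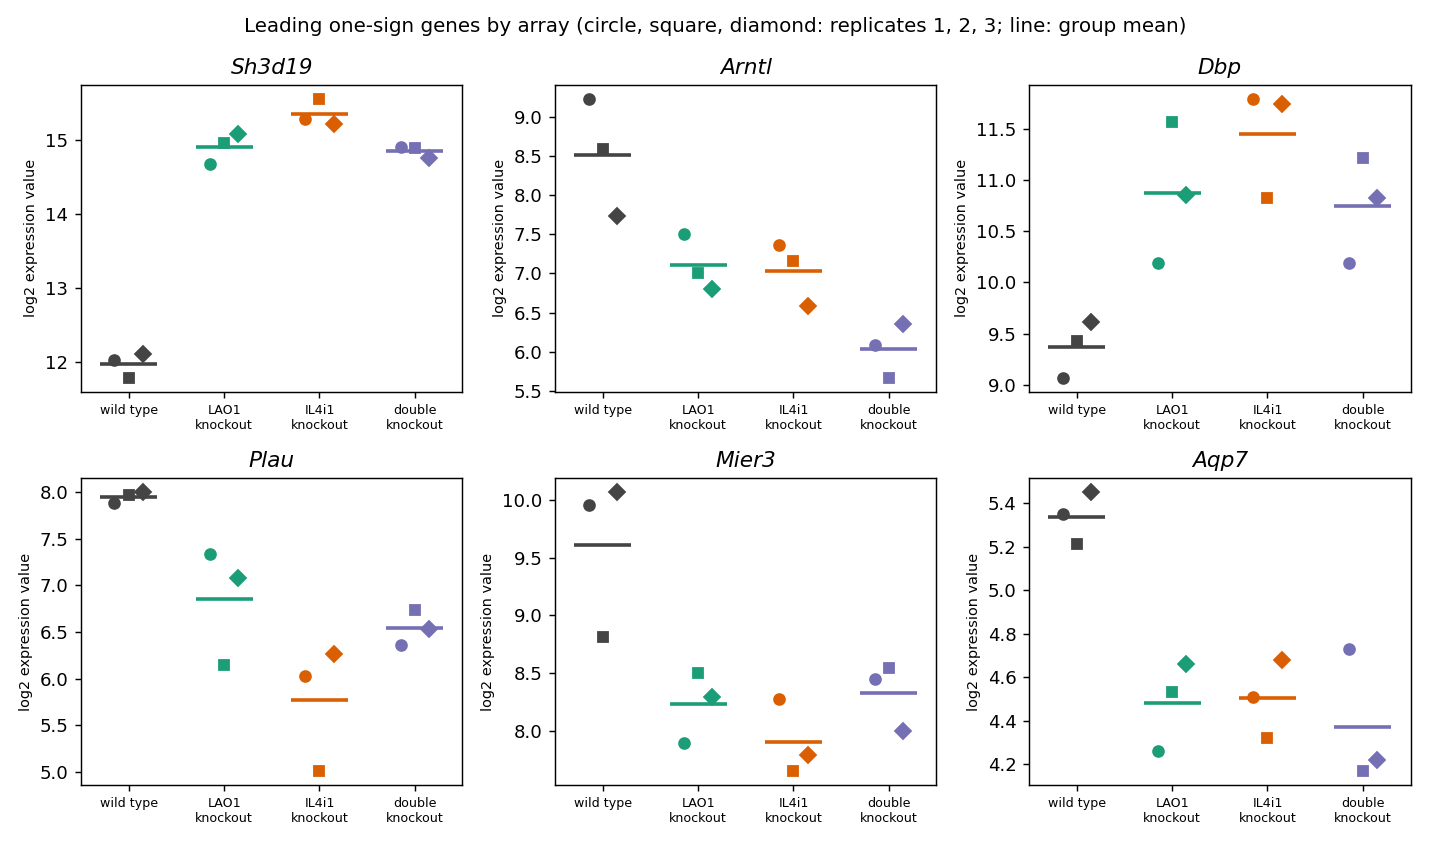
Log2 expression values of 6 leading genes of one sign on each of the 12 arrays, by genotype; points are arrays and lines are group means. For Sh3d19 the 9 knockout arrays sit between 14.67 and 15.55, and the 3 wild type arrays between 11.79 and 12.11.

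In the pooled contrast 1 of 22206 probes passed the adjusted threshold of 0.05 (0.0045%), and 0 passed lower. At an unadjusted p under 0.05 there were 501 higher probes (2.26%) and 564 lower probes (2.54%), or 4.8% together. The next gene after Sh3d19 was Mcpt1 (difference -3.36, SE 0.49, adjusted p = 0.115), which is not of one sign, followed by Arntl (adjusted p = 0.21) and Plau (adjusted p = 0.376). Counting arrays without a test, 94 probes had all 9 knockout arrays above all 3 wild type arrays (0.423%) and 66 had all below (0.297%), or 160 in all (0.721%), of which 141 were named. Fewer still, 68 probes (0.306%), had one sign and an unadjusted p under 0.05 in each knockout.

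The leading genes are the 15 with the smallest p in each direction among those of one sign. Apart from Sh3d19 none of these 30 passed the test, so their values are a description. In 20 of the 30, 9 higher and 11 lower, the 9 knockout arrays did not overlap wild type, which is partly a result of ranking them by p.

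**Figure D2:**
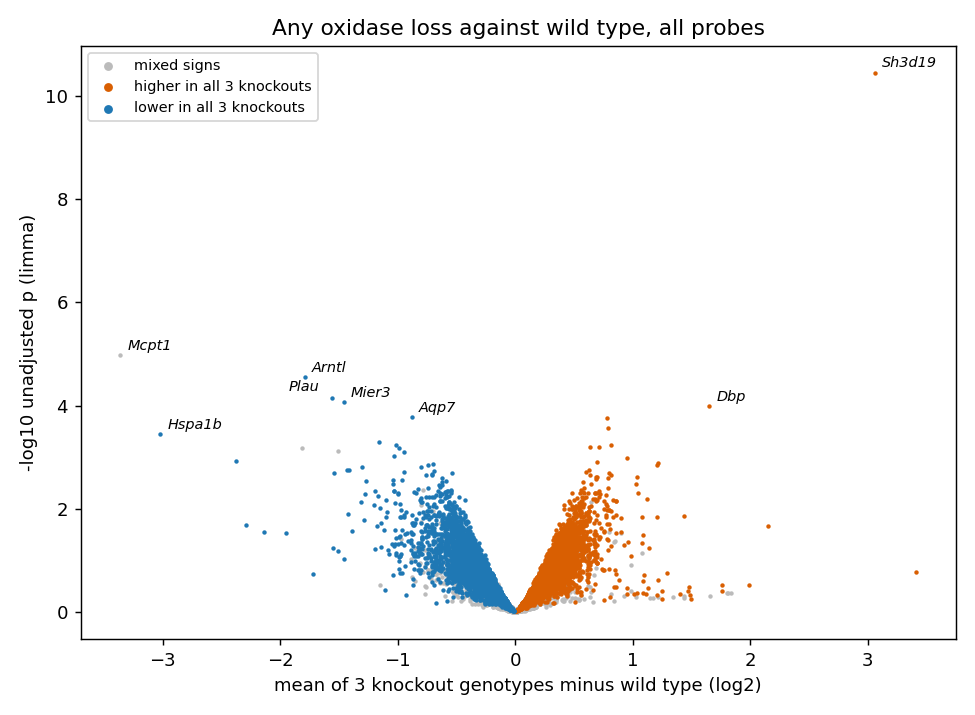
Each point is a probe: the horizontal axis is the log2 difference between the mean of the 3 knockout genotypes and wild type, and the vertical axis is -log10 of limma's unadjusted p. Sh3d19 stands alone at 3.06, while Mcpt1, the next probe, is grey because its sign differs in the double knockout.

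Among the higher genes, Dbp, an output transcription factor of the circadian clock, was at 9.07, 9.43 and 9.61 in wild type. It was at 10.19, 11.56 and 10.85 for LAO1 KO, 11.79, 10.82 and 11.74 for IL4i1 KO and 10.19, 11.21 and 10.82 for DKO. All 9 knockout arrays were above wild type, with a difference of 1.65 (SE 0.30, adjusted p = 0.38). Zbtb14, a zinc finger transcription factor, was at 6.67 to 7.06 in wild type and 7.51 to 7.87 in the knockouts, a difference of 0.78 (SE 0.15, adjusted p = 0.486). Its 3 knockout differences were close, at 0.88, 0.68 and 0.78.

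Fam83e was higher by 0.79 (SE 0.16, adjusted p = 0.655), at 13.20 to 13.57 in wild type and 13.85 to 15.03 in the knockouts. Most of that came from the IL4i1 knockout, at 1.33 against 0.50 and 0.55. Dbp was also highest there, at 2.08 against 1.5 and 1.37. By their probe names Fam83e and Dbp lie close together on chromosome 7, the chromosome of Il4i1. Car11, whose probe name comes just before that of Dbp, was not of one sign, with differences of -0.06, 1.29 and 0.03. Its knockouts differed from each other (F test, adjusted p = 0.0446). Car11 was named after its values were seen, and other neighbours are not shown. Whether that place has a part in the values of these genes was not tested. Csta1, a cysteine protease inhibitor of the stefin family, showed the same order on a dim probe, with differences of 0.43, 1.22 and 0.47. The test among the 3 knockouts did not pass for Fam83e, Csta1 or Dbp (adjusted p = 0.178, 0.198 and 0.723).

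Other higher genes were led by the double knockout. The heparan sulfate sulfatase Sulf2 had differences of 0.41, 0.15 and 1.83, the SUMO-activating enzyme subunit Sae1 0.14, 0.51 and 1.24, and the replication nuclease Fen1 0.71, 0.36 and 1.78, in the order LAO1 knockout, IL4i1 knockout, double knockout. Sulf2 was the only leading gene whose knockouts differed from each other past the threshold (adjusted p = 0.0182). At an unadjusted p under 0.05 in the same F test, 16 of the 30 leading genes differed among the knockouts, against 8.34% of all probes. Ranking by p favours genes of small spread, which can raise that count. For Sulf2 the double knockout stood out. Its pooled difference of 0.80 (SE 0.21) thus averages unequal parts. Fam161a, a ciliary protein gene, leaned the other way, with 0.74, 0.99 and 0.19.

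The remaining higher genes were Lamtor1 (0.60), which anchors a lysosomal signalling complex, Rccd1 (0.82), and 2 very dim probes, Olfr1443 (0.70) and Pdilt (0.64). Pdilt lay at 1.90 to 2.44 in wild type, at the foot of the scale, where a level is not reliable.

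Among the lower genes, Plau, the urokinase plasminogen activator of matrix turnover, was at 7.88, 7.97 and 8 in wild type. It was at 7.34, 6.15 and 7.08 for LAO1 KO, 6.03, 5.01 and 6.26 for IL4i1 KO and 6.36, 6.74 and 6.53 for DKO. The groups did not overlap, and the difference was -1.56 (SE 0.27, adjusted p = 0.376). Wild type was tight here, while the IL4i1 knockout was lowest.

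Mier3, a component of histone deacetylase complexes, was at 9.96, 8.81 and 10.07 in wild type and between 7.65 and 8.54 in the 9 knockout arrays. Its difference was -1.46 (SE 0.26, adjusted p = 0.376). Wild type replicate 2 was the lowest of its group, and without that array the difference was -1.86 and passed (adjusted p = 0.0278). Leaving out the wild type array nearest the knockouts is bound to enlarge the difference. Without wild type replicate 3 it was -1.23, and over all single arrays left out the adjusted p ran up to 0.999. Aqp7, a channel for water and glycerol, was at 5.21 to 5.45 in wild type and 4.17 to 4.73 in the knockouts, with near-equal differences of -0.85, -0.83 and -0.96. Its pooled difference was -0.88 (SE 0.17, adjusted p = 0.486).

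The orphan nuclear receptor Nr4a2, an immediate early gene, was at 10.44, 10.36 and 10.32 in wild type and 8.42 to 9.93 in the knockouts, a difference of -1.16 (SE 0.25, adjusted p = 0.877). Osmr, the receptor subunit for oncostatin M, was lower by 1.29 and 1.07 in the single knockouts and by 0.49 in the double knockout. Klhl24, a ubiquitin ligase adaptor that acts on intermediate filaments, ran the other way, with differences of -0.59, -0.89 and -1.51.

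Arhgef38 (-1.03), Ahcyl2 (-1.41), Dhrs7 (-0.70), Dst (-0.74) and Garre1 (-0.80) complete the lower genes together with Arntl, Npas2, Hspa1b and Hspa1a, described next. Dst encodes dystonin, which links the cytoskeleton to hemidesmosomes, and Ahcyl2 a protein that binds regulators of calcium and bicarbonate transport.

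The molecular clock rests on a loop in which ARNTL pairs with CLOCK or NPAS2 to activate Per, Cry, Nr1d1, Ciart and Dbp through E-boxes. PER and CRY then repress that pair, DBP and TEF act through D-boxes, and NR1D1 and ROR proteins compete at response elements such as those at Arntl. Of 20 measured clock genes, 14 had one sign in all 3 knockouts (70%, against 46.7% of all named genes), 9 higher and 5 lower. Their median difference was 0.23, against 0.01 over all genes. That clock median was 0.11 without wild type replicate 3 and 0.32 without IL4i1 knockout replicate 2. None passed the adjusted test (0 of 20). At an unadjusted p under 0.05 there were 5 higher, Dbp, Ciart, Per3, Per2 and Wee1, and 2 lower, Arntl and Npas2.

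Arntl, the activator, was at 9.23, 8.59 and 7.73 in wild type, 7.51, 7.01 and 6.80 for LAO1 KO, 7.36, 7.16 and 6.59 for IL4i1 KO and 6.08, 5.67 and 6.36 for DKO. All knockout arrays lay below wild type, and the double knockout lay lowest. The pooled difference was -1.79 (SE 0.29, adjusted p = 0.21). Npas2, its partner, was at 10.01, 9.40 and 7.91 in wild type and at 6.47 to 8.59 in the knockouts. It overlapped through wild type replicate 3, with a difference of -1.30 (SE 0.33, adjusted p = 0.961). Clock had -0.55 and Rora -0.25.

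For both Arntl and Npas2, wild type replicate 3 was the lowest of its group. Without that array Arntl stood at -2.18 (adjusted p = 0.0298) and Npas2 at -1.90 (adjusted p = 0.0268), both past the threshold. Without wild type replicate 1, the highest for both, Arntl stood at -1.43 and Npas2 at -0.85.

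Ciart, a repressor of the ARNTL-CLOCK pair, was at 5.14, 5.41 and 5.36 in wild type and 5.68 to 7.88 in the knockouts, without overlap (1.22, SE 0.30, adjusted p = 0.961). Per3 was at 7.32, 8.23 and 8.20 in wild type and 8.45 to 9.79 in the knockouts, again without overlap (1.21, SE 0.30, adjusted p = 0.961). Per2 differed by 1.03 (SE 0.29) and overlapped wild type in the LAO1 knockout. Tef, Cry1, Nr1d2 and Bhlhe41 had smaller differences of 0.48, 0.36, 0.32 and 0.21.

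Nr1d1, a repressor of Arntl, was not of one sign. It was higher in the single knockouts, by 0.81 and 0.71, and lower in the double knockout, by 1.08, and the 3 knockouts differed from each other (adjusted p = 0.00947). Per1 was level with wild type in both single knockouts and 0.98 higher in the double knockout. The hour of collection was not available for these mice, so its part in the clock values was not tested.

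**Figure D3:**
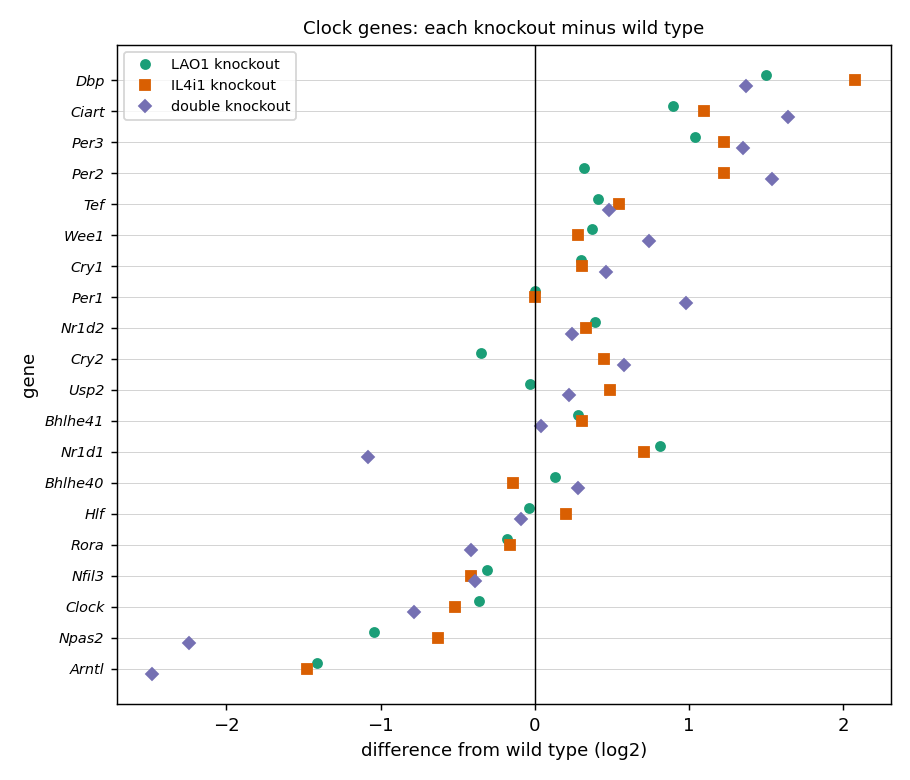
Log2 difference from wild type of the 20 measured clock genes, with 1 marker for each knockout genotype. Arntl and Npas2 lie below 0 and Dbp, Ciart and Per3 above 0 in all 3 genotypes, while the double knockout marker of Nr1d1 falls at -1.08.

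Clock motifs were looked for on both strands of RefSeq windows of 300 bases, 250 before and 50 after each start (GRCm38.p6). The E-box was CACGTG, the D-box TTATGTAA, the response element core of ROR and NR1D1 TAGGTCA, and the heat shock element GAANNTTC, and none of the marked matches overlap. Of 27025 genes with a window, 8.09% held the E-box, 1.11% the D-box, 2.97% the response element core and 9.04% the heat shock element. Of 17 measured clock genes with a window, 5 held an E-box (Bhlhe41, Ciart, Cry1, Per1 and Tef), 1 a D-box (Per3) and 2 the response element core (Arntl and Nfil3). A match is only a description of the letters.

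The 3 sequences that follow show these motifs in capitals, 5′ to 3′ on the gene's strand, for 2 genes that were higher and 1 that was lower. Ciart (chr3:95882229-95882478, minus strand) held 3 E-boxes, starting 116, 58 and 44 bases before its start. Per3 (chr4:151044666-151044915, minus strand) held 2 D-boxes, 205 and 158 bases before its start. Arntl (chr7:113207531-113207557, plus strand) held the response element core 30 bases after one of its starts.
Ciart: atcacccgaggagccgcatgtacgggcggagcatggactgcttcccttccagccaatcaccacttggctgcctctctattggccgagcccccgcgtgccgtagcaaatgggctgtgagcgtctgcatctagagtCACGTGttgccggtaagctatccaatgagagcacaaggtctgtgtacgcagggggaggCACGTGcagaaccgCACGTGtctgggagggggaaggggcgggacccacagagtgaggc
Per3: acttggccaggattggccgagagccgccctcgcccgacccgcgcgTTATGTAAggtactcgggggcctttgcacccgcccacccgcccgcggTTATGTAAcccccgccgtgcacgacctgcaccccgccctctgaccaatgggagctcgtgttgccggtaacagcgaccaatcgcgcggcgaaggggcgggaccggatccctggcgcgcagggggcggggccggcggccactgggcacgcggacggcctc
Arntl: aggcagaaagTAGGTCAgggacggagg

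Heat shock genes encode chaperones that refold proteins after stress. Of 16 measured, 7 were lower and 2 higher in all 3 knockouts, with a median difference of -0.17. Over all named genes the shares were 22% lower and 24.7% higher, and 2.54% of all probes were lower at an unadjusted p under 0.05. None passed the adjusted test (0), and 6 were lower at an unadjusted p under 0.05. Without wild type replicate 2 there were 5 lower, 3 of them at an unadjusted p under 0.05, and the median was -0.01. The median was -0.44 without wild type replicate 3. Hspa1b, an inducible 70 kDa class chaperone, was at 8.73, 12.79 and 9.38 in wild type, 7.29, 8.32 and 7.22 for LAO1 KO, 7.30, 7.22 and 7.5 for IL4i1 KO and 6.42, 6.46 and 7.78 for DKO. All knockout arrays were below wild type, but wild type replicate 2 stood far above its group. The difference was -3.02 (SE 0.64, adjusted p = 0.795), and without that array it was -1.78.

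Hspa1a, a near-identical copy whose signal may not be separable from that of Hspa1b, was at 9.04, 12.59 and 9.08 in wild type and 7.18 to 8.46 in the knockouts. Its difference was -2.38 (SE 0.58), or -1.20 without wild type replicate 2. The cochaperones Bag3 (-1.04) and Dnajb1 (-1.28) were also highest in that wild type array, at 9.74 and 10.76, and stood at -0.63 and -0.62 without it. The mitochondrial pair Hspd1 (0.70) and Hspe1 (0.29) was higher in all 3 knockouts.

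Of 14 measured heat shock genes with a window, 9 held the element GAANNTTC, against 9.04% of all genes. The window of Hspa1b is printed with its 1 match in capitals, 104 bases before the start (chr17:34959239-34959488, minus strand).
Hspa1b: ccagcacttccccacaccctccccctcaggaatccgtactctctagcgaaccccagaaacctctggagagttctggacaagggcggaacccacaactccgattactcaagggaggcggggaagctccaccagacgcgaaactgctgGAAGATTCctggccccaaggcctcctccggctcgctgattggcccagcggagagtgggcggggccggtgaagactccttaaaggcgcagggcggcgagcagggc

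Immediate early genes, which answer signals and handling within minutes, were high in some of the same wild type arrays. Of 23, 12 were lower and 1 higher in all 3 knockouts, with a median of -0.36, 0 past the adjusted test and 3 lower at an unadjusted p under 0.05 (Nr4a2, Nr4a1 and Egr1), against 22% lower and 24.7% higher over all named genes and 2.54% of probes lower at that p. Egr1 was at 13.15, 13.92 and 10.55 in wild type and 8.55 to 12.83 in the knockouts, so that the groups overlapped (-2.29, SE 0.87, adjusted p = 0.961). Without wild type replicate 2 the list had 8 lower and 4 higher and a median of -0.13. Without wild type replicate 3 the median was -0.60 and 9 were lower at an unadjusted p under 0.05.

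**Figure D4:**
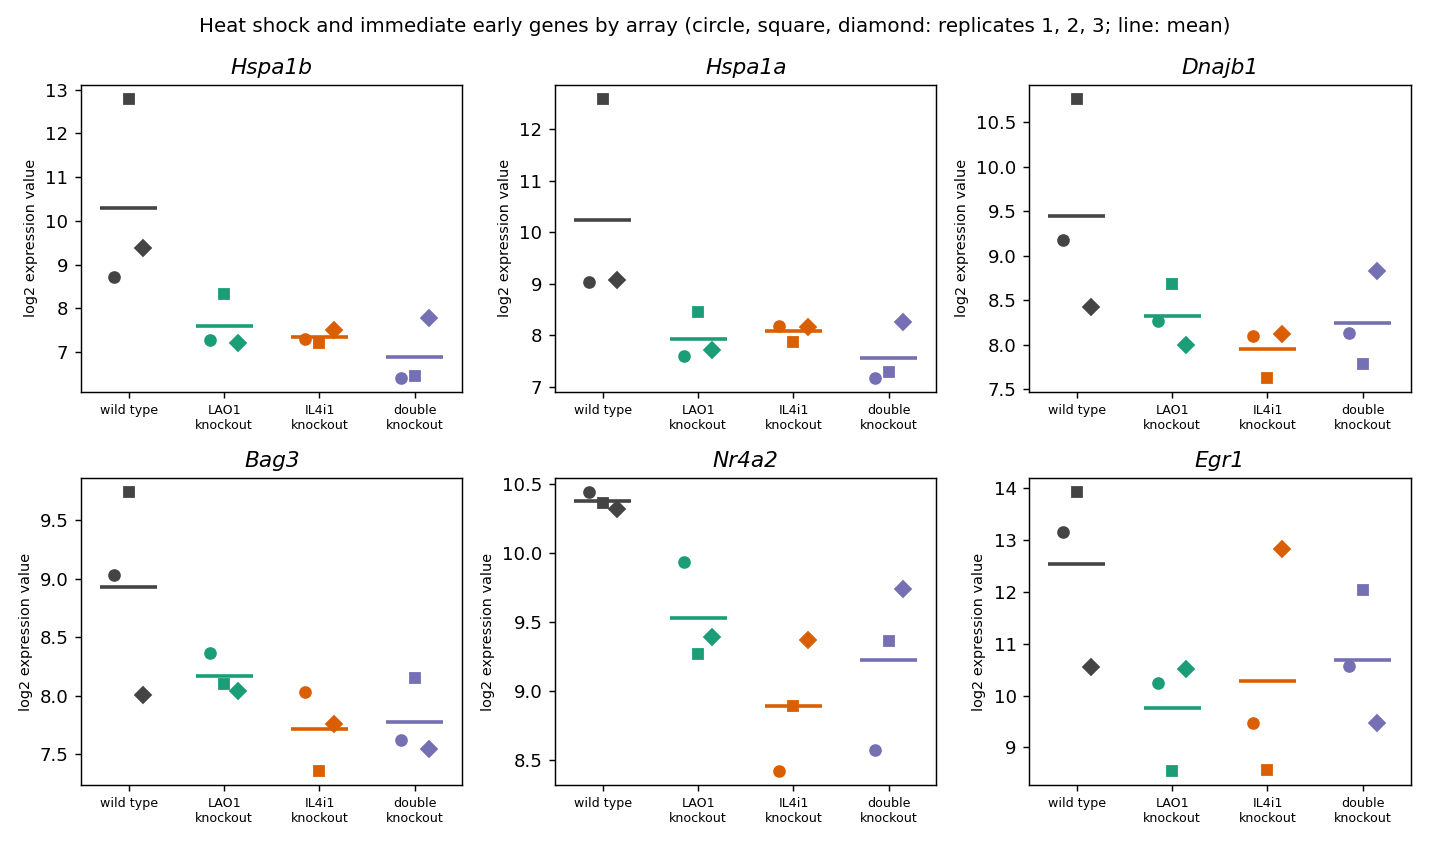
Log2 values of 4 heat shock genes and 2 immediate early genes on each array; points are arrays and lines are group means. Wild type replicate 2 (square) is the highest array for Hspa1b, Hspa1a, Dnajb1, Bag3 and Egr1, and for Nr4a2 the 3 wild type arrays lie together at 10.32 to 10.44.

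Of 24 measured genes of DNA replication and mitosis, 12 were higher and 1 lower in all 3 knockouts, against 24.7% and 22% of all genes, and the median was 0.28. Fen1 (0.95), the helicase subunits Mcm6 (1.04) and Mcm4 (0.76) and the sliding clamp Pcna (0.63) had an unadjusted p under 0.05, where the share over all probes was 2.26%, and 0 passed the adjusted test. Mcm6 did not overlap, at 7.88 to 8.69 in wild type and 8.73 to 10.67 in the knockouts. The one lower member was the proliferation marker Mki67 (-0.82). The median was 0.67 for DKO, 0.15 for LAO1 KO and -0.02 for IL4i1 KO. The list median was 0.16, with 5 lower, without double knockout replicate 1. The number at an unadjusted p under 0.05 was 2 without wild type replicate 2 and 8 without double knockout replicate 2.

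Among fibroblast and matrix genes 13 of 18 were lower and 3 higher in all 3 knockouts (88.9% of one sign), with a median of -0.38, against 22% lower and 24.7% higher over all named genes. Collagen genes Col1a2 (-0.81), Col1a1 (-0.55) and Col3a1 (-0.48) and the collagen crosslinker Loxl1 (-0.53) were among them, and Sulf2 was the largest exception. At an unadjusted p under 0.05 there was 1 lower and 1 higher, and 0 passed the adjusted test. The count was 8 lower and the median -0.18 without wild type replicate 2, and 7 were lower without double knockout replicate 3. The list had 0 lower members at an unadjusted p under 0.05 without wild type replicate 1 and 4 without wild type replicate 3 or double knockout replicate 2.

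Among adipocyte genes 8 of 13 were lower and 0 higher in all 3 knockouts, with a median of -0.31, against 22% and 24.7% of all named genes. The hormone Adipoq (-0.98), the fatty acid carrier Fabp4 (-1.02), the desaturase Scd1 (-1.39) and Car3 (-2.14) had an unadjusted p under 0.05, where 2.54% of all probes were lower, and 0 passed the adjusted test. Car3 was at 7.69, 8.58 and 8.33 in wild type and 3.55 to 9.12 in the knockouts, with both ends of that range in the IL4i1 knockout. The list had 0 members at an unadjusted p under 0.05 without wild type replicate 3 and 1 without wild type replicate 2. Targets of PPAR and fatty acid oxidation had 9 of 17 lower and 2 higher, a median of -0.13 and 0 past the adjusted test, or 5 lower without LAO1 knockout replicate 1. Pdk4, a brake on glucose oxidation, differed by -1.03 and the fatty acid transporter Cd36 by -0.96. How much attached fat each piece of colon carried was not tested.

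Macrophage, monocyte and dendritic cell genes had 9 of 19 lower and 1 higher, with a median of -0.25, against 22% and 24.7% of all named genes. That pooled median averages unequal parts: -0.28 for LAO1 KO, -0.66 for IL4i1 KO and -0.02 for DKO. At an unadjusted p under 0.05 there were 4 lower members, where 2.54% of all probes were lower, and 0 passed the adjusted test. Among the 4 were Csf1r (-0.89), Cx3cr1 (-0.60) and Mrc1 (-0.89), which were picked for their small p. Of the 19 members, 9 were not of one sign. The count was 4 lower and the median -0.04 without wild type replicate 1. There were 0 members at an unadjusted p under 0.05 without wild type replicate 1, wild type replicate 2, LAO1 knockout replicate 3, IL4i1 knockout replicate 2 or double knockout replicate 3, and 7 without wild type replicate 3. Endothelial genes had 7 of 14 lower and 0 higher (median -0.25), with the lymphatic marker Lyve1 at -0.67 and Cldn5, on a dim probe and the only member at an unadjusted p under 0.05, at -0.39, or 4 lower without IL4i1 knockout replicate 2. B and plasma cell genes had 9 of 18 higher and 2 lower (median 0.18), with Bank1 at 0.75 and 0 members at an unadjusted p under 0.05, or 5 higher without wild type replicate 2 and 4 higher without LAO1 knockout replicate 1.

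**Figure D5:**
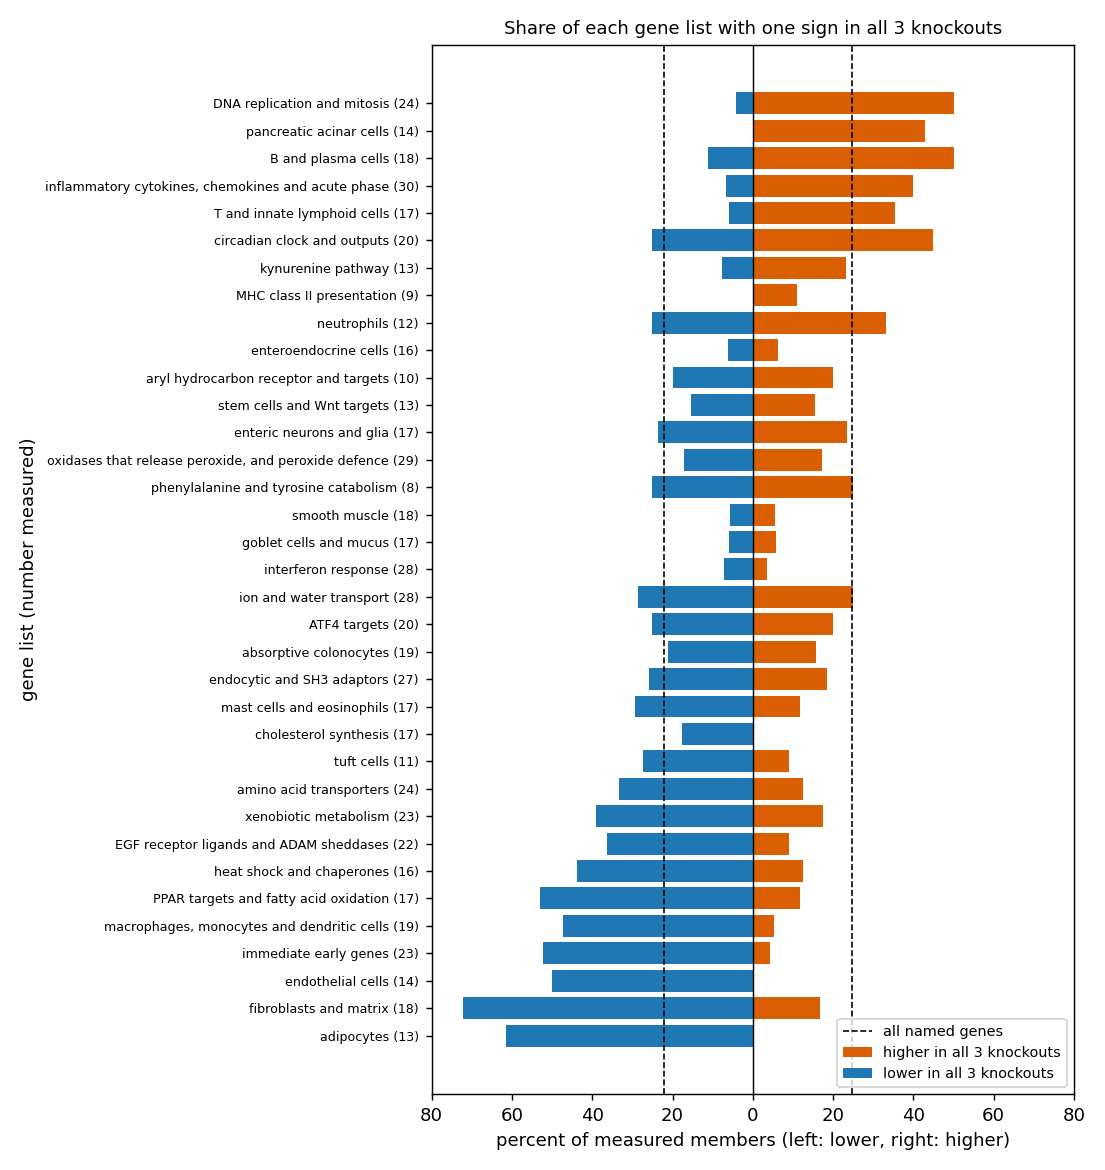
For each gene list, the bars show the percent of measured members that were higher (right) or lower (left) in all 3 knockouts, with the number measured in brackets. Dashed lines mark 24.7% and 22%, the shares over all named genes, and DNA replication stands at 50% higher and fibroblasts and matrix at 72.2% lower.

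Genes of the interferon response seldom had one sign. Only 3 of 28 had one sign (10.7%), 1 higher and 2 lower, while 14 differed among the 3 knockouts past the threshold, where the share over all probes was 0.302%. The list medians were -0.53 for LAO1 KO, -0.84 for IL4i1 KO and 1.5 in the double knockout, so the pooled median of -0.09 averages opposite parts, and it was 0.09 without wild type replicate 3. Gbp7, a guanylate-binding protein of cell-autonomous defence, was at 9.19, 9.78 and 10.17 in wild type, 7.68 to 8.80 for LAO1 KO, 7.84 to 8.66 for IL4i1 KO and 11 to 11.88 for DKO. Gm12250, Oasl2, Gbp3 and Gbp7 each had an adjusted p of 0.00121 for differences among the knockouts.

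MHC class II genes followed, with 1 of 9 of one sign and 3 that differed among the knockouts. The mucosal mast cell protease Mcpt1 was the gene that differed most (adjusted p = 6.43e-05), with -3.77 for LAO1 KO, -7.82 for IL4i1 KO and 1.52 for DKO. Over its whole list of mast cell and eosinophil genes, 5 of 17 were lower and 2 higher in all 3 knockouts, 3 differed among the knockouts, and the median was -0.08. Without wild type replicate 1, 0 of 17 were lower in all 3 knockouts. In all, 67 probes differed among the knockouts (0.302%, and 8.34% at an unadjusted p under 0.05). The double knockout lay farthest from the other 2 in 58 of them, 52 of these higher.

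For lists tied to the enzymes' chemistry, the shares over all named genes to set beside the counts are 24.7% higher and 22% lower. In the order higher then lower in all 3 knockouts, the kynurenine pathway had 3 and 1 of 13 (median 0.09), aryl hydrocarbon receptor targets 2 and 2 of 10 (0.02), and phenylalanine and tyrosine catabolism 2 and 2 of 8 (-0.12). Oxidases that release peroxide and peroxide defence had 5 and 5 of 29 (0.01), amino acid transporters 3 and 8 of 24 (-0.04), and ATF4 targets 4 and 5 of 20 (0.05). In these 6 lists 0 members passed the adjusted test. Single arrays moved these counts: the amino acid transporters had 4 lower without wild type replicate 1 or 2 and 10 lower (41.7%, median -0.24) without wild type replicate 3. Without that array aryl hydrocarbon receptor targets had 5 lower and oxidases and peroxide defence 9, and without IL4i1 knockout replicate 2 the ATF4 targets had 1 higher. Among single members, the monoamine oxidase Maoa stood at -0.39, the aryl hydrocarbon receptor target Tiparp at -0.41, the neutral amino acid transporter Slc1a4 at -0.98 and the mitochondrial folate enzyme Aldh1l2 at -1.02.

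Among epithelial lists, absorptive colonocyte genes had 3 higher and 4 lower of 19 (median -0.14), with the guanylate cyclase peptide Guca2b at 1.12, and 7 lower without wild type replicate 3 or IL4i1 knockout replicate 2. Ion and water transport had 7 and 8 of 28 (-0.08). Besides Aqp7, the monocarboxylate transporter Slc16a1, which carries butyrate, was lower by near-equal amounts in the 3 knockouts. It was at 13.10, 12.92 and 12.59 in wild type and 11.66 to 12.46 in the knockouts, without overlap (-0.71, SE 0.19, adjusted p = 0.961).

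Goblet cell genes had 1 and 1 of 17 (-0.03), with the secretory cell factor Spdef at -0.72. Enteroendocrine genes had 1 and 1 of 16 (0.06), tuft cells 1 and 3 of 11 (-0.01), and stem cell and Wnt genes 2 and 2 of 13 (-0.09). Enteroendocrine genes had 4 higher without wild type replicate 1 and 4 lower without wild type replicate 2, with medians of 0.16 and -0.12. EGF receptor ligands and ADAM sheddases, the setting in which the Sh3d19 protein is known, had 2 and 8 of 22 (-0.14), or 4 lower without wild type replicate 1. Its relatives among endocytic and SH3 adaptors had 5 and 7 of 27 (-0.07), and Sh3d19 itself was the only one that passed. The adaptors had 4 lower without wild type replicate 1 and 13 lower without wild type replicate 3. None of the other epithelial lists had a member past the adjusted test (0 each).

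The remaining lists, again higher then lower, were inflammatory cytokines and chemokines with 12 and 2 of 30 (0.25), T and innate lymphoid cells with 6 and 1 of 17 (0.11) and neutrophils with 4 and 3 of 12 (0.07). Smooth muscle had 1 and 1 of 18 (-0.07), enteric neurons and glia 4 and 4 of 17 (-0.01), cholesterol synthesis 0 and 3 of 17 (-0.10) and xenobiotic metabolism 4 and 9 of 23 (-0.38). The cholesterol list had 11 lower and a median of -0.42 without wild type replicate 3, but 4 higher, 1 lower and a median of 0.09 without wild type replicate 1. Xenobiotic metabolism had 3 lower without LAO1 knockout replicate 1, smooth muscle 6 lower without IL4i1 knockout replicate 2, and T and innate lymphoid cells 2 higher without IL4i1 knockout replicate 1. The inflammatory median was 0.01 without double knockout replicate 1, the array in which the antimicrobial genes Lcn2 and Reg3b reached 9.81 and 18.59. Pancreatic acinar genes had 6 and 0 of 14 and a median of 1.19, which was -0.01 without double knockout replicate 2, where Cpa1 reached 18.12, and 12 were higher without wild type replicate 3. The Y-linked and blood check genes had 1 and 1 of 4 (-0.08).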

How the data were processed

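Total RNA from mouse colon (6 µg per the labels' protocols) was hybridised to Affymetrix arrays, 3 per genotype and 12 in all, and grouped by the sample labels. The authors deposited log2 expression values of 22206 probes (1.72 to 19.93). Transcriptome Analysis Console is the tool named in the submitters' processing notes. Summarisation, normalization and build are not given in the sources used here. No filter was applied to the deposited values, and 22 probes reached the top value. Arrays have no read depth, and their number limits the precision. Of the probes 19572 carried 1 gene symbol, 0 several and 2634 none in the platform annotation, which can be old; all 19572 matched RefSeq by Entrez number. 55 genes had more than 1 probe; lists used the brightest.

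One fit with limma 3.58.1 (R 4.3.3; lmFit, eBayes, two-sided, 8 residual degrees of freedom) held a mean per genotype. The contrasts were the mean of the 3 knockouts less wild type, each knockout less wild type, and a moderated F test for differences among the knockouts. P-values were adjusted by Benjamini-Hochberg over all probes, threshold 0.05. "Passed" means this adjusted test. A gene's SE comes from the fit. The 36 lists are described by counts and medians, without a set test. The script was tested on simulated data with independent noise. Of 50 probes raised by a log2 of 3 in the pooled contrast, 49 were recovered, of 50 raised by 1, 21 and of 50 lowered by 1, 29. All these probes were changed together, which eases the adjusted threshold. In the real pooled contrast 1 probe passed, so the recovered shares check the script and overstate the power of that contrast.

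Genes were named by rule: Lao1 and Il4i1; the 15 genes with the smallest p per direction among those of one sign, unless more passed; up to 3 genes of one sign per list; 5 genes that differed most among the knockouts; and 5 neighbours of Sh3d19 per side. A further part of the rule, genes that correlate with Sh3d19, was not used because its values form 2 clusters. List genes beyond the rule (such as Clock, Rora, Nr1d1, Per1, Col1a1 and Mki67) and Car11 were named after their values were seen. The members and lists were chosen with earlier results of these data known. Promoter windows came from RefSeq (GRCm38.p6). Figures used matplotlib 3.10.9 in Python 3.11.15. Alternatives were array weights, eBayes with trend and robust options, quantile normalization, only probes above the 40th percentile of mean, a replicate block, the knockouts pooled as 1 group, the largest of the 3 p-values, leaving out each array or each knockout genotype and, added after seeing the data, leaving out together the 3 arrays farthest out in the principal components.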

Additional observations from a re-analysis of the deposited data

Results flagged for a closer look

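Among 137 named genes, the 9 knockout arrays were searched for 1 array far from the other 8, and 8 genes had one. Chance alone gives about 1 in 20 where all 9 arrays belong to 1 group, so 8 of 137 is near that share. Here the 9 arrays came from 3 genotypes. Ciart was 7.88 in double knockout replicate 2, and Arhgef38 was 10.5 and Rhbdf2 7.54 in double knockout replicate 1. Guca2b was 5.7 in IL4i1 knockout replicate 3 and Tac1, a neuropeptide gene, 10.48 in IL4i1 knockout replicate 2. The pancreatic enzyme genes Cela1, Cpa1 and Cela3b were 15.48, 18.12 and 12.17 in double knockout replicate 2.

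For 8 of these 137 genes, which were named by rule, the effect differed between the knockout genotypes, by limma's F test over all probes. Mcpt1, Gm12250, Oasl2, Gbp3 and Gbp7 were named because they differed most in this same test. Their passing follows from that choice, so the count of 8 does not measure how often named genes differ. Of all 22206 probes, 67 passed this F test (0.302%). The adjusted p was 6.43e-05 for Mcpt1, 0.00121 for each of Gm12250, Oasl2, Gbp3 and Gbp7, 0.0112 for Nupr1, 0.0182 for Sulf2 and 0.0424 for Trpm6. Nupr1, a stress-induced cofactor, stood at -0.04, -0.97 and -3.61 in the LAO1, IL4i1 and double knockout. Trpm6, the magnesium channel of the colon, stood at -0.70, -0.03 and -2.57. Nr1d1, which was named after its values were seen, had an adjusted p of 0.00947 in the same test.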

How the results depend on the processing

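Sh3d19 passed under all 23 alternatives. Leaving out 1 array gave 1 to 3 probes in the pooled comparison: Mcpt1 and Mier3 joined Sh3d19 without wild type replicate 2, and Arntl and Npas2 without wild type replicate 3. Without the double knockout genotype 2 passed (Sh3d19, Mcpt1), as with array weights (Sh3d19, Arntl). The other 29 leading genes kept their direction in all 664 values tried and passed in 4. They were picked from these same arrays for one sign and a small p. Some alternatives, such as the trend and robust options, leave the differences unchanged. The kept direction was thus largely fixed in advance. Probes differing among the knockouts numbered 31 to 100 without 1 array (31 without double knockout replicate 1, 100 without replicate 2) and 7 without the 3 arrays that stand apart. Named probes of one sign numbered 8551 to 11404 without 1 array, most without wild type replicate 3, and 5613 among probes above the 40th percentile of mean, where fewer were counted (47.1% of them).

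Against wild type, leaving out 1 array gave 1 to 4 probes in the LAO1 knockout, 2 to 6 in the IL4i1 knockout and 1 to 38 in the double knockout (1 without wild type replicate 2, 38 without double knockout replicate 2). With trend and robust options the IL4i1 knockout had 8 and the double knockout 11, with array weights 11 and 18, and without the 3 arrays the double knockout had 2. The causes were not tested. The mast cell median was -0.72 among probes above the 40th percentile, 0.02 with array weights and -0.18 to 0.04 without 1 array. With the replicate block 1 probe passed in the pooled comparison, and no call of the pooled comparison changed. Deviations of same-numbered arrays correlated at 0.0641 on average, with 7 of 18 pairs over 0.1, against -0.0324 for arrays of different numbers and genotypes. Of 12 arrays, 5 correlated best with an array of their own number. The labels do not say what a number marks, and whether it marks a shared day or litter was not tested.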
